A study of Pinus tabuliformis with 21 samples.

Results

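Foliage of Chinese pine (Pinus tabuliformis) after 3 d of UV-C was compared with foliage of unirradiated seedlings, by poly(A) RNA sequencing. The comparison takes 6 of the 21 libraries of the series: UV-C 3 d replicates 1 to 3, and control replicates 1 to 3. Libraries were assigned by their labels alone, and no expression value entered the choice. The UV-C seedlings received 28 µW/cm2 at 230 to 270 nm, peaking at 254 nm, added to the fluorescent greenhouse light for 3 d. The control seedlings received neither UV-C nor UV-B and were sampled at 0 h, so the comparison spans 3 d of time as well as the irradiation. All seedlings were 2.5 years old, were kept at 25 °C under 12 h of light, and came from groups of 20 individuals. The labels do not say how many seedlings entered a library or whether replicates were separate seedlings, so each p-value sets a difference against the spread among these libraries only, and that spread may be technical.

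UV-C is the short-wave ultraviolet band that the atmosphere absorbs, so plants meet it under lamps. DNA and RNA absorb it strongly, and in DNA it joins neighbouring pyrimidines into dimers that block transcription and replication. Plants split such dimers with light-driven photolyases or cut them out by excision repair, and foliage under ultraviolet light is also known for making phenolic sunscreens, antioxidants and defence proteins. Conifer needles carry a thick waxy cuticle and epidermis above the green mesophyll. The deposited table gives gene models by identifier only, without names, so none of these responses can be assigned to a gene model here, the label of leaf tissue could not be checked against marker genes, and gene models are described by their behaviour.

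The UV-C 3 d libraries held 6177212, 7444867 and 7569757 counts in replicates 1, 2 and 3, and the control libraries held 7517118, 7455114 and 8065146. Totals averaged 7063945 ± 770468 in UV-C 3 d and 7679126 ± 335738 in the control (SD, n = 3 each; exact two-sided permutation test, p = 0.4, where 3 against 3 cannot give less than 0.1). The number of gene models with a count was 24677 ± 336 in UV-C 3 d and 23968 ± 77.5 in the control, and the groups did not overlap (exact permutation p = 0.1, the smallest the design allows). The biological coefficient of variation, the spread between replicates beyond counting noise, was 34.4% in UV-C 3 d and 13.5% in the control.

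The UV-C 3 d libraries differed among themselves in how far they lay from the control. Over genes, which are not independent replicates, the mean correlation of log2 levels with the 3 control libraries was 0.89 for UV-C 3 d replicate 1, 0.833 for replicate 2 and 0.945 for replicate 3. Replicates 1 and 2 correlated at 0.96 with each other, whereas replicate 3 correlated at 0.902 on average with its mates. Its nearest group in the series was UV-C 7 d, with correlations of 0.96 to 0.965. Replicate 2 lay farthest from the control and replicate 3 nearest, with replicate 1 between them. Leaving out replicate 3 lowered the group's coefficient of variation to 23.8%, leaving out replicate 2 gave 32.6%, and leaving out replicate 1 raised it to 45.5%.

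Of 15507 gene models tested, 1608 stood above the control level after 3 d of UV-C and 1103 stood below it. These calls, at a Benjamini-Hochberg adjusted p under 0.05 in edgeR's quasi-likelihood test of the 6 libraries, made up 17.5% of the genes tested (10.4% higher, 7.11% lower). The genes called higher had a median log2 fold change of 1.47, with quartiles of 0.79 and 2.57, and those called lower a median of -0.91, with quartiles of -1.3 and -0.67. Over all genes tested the median was 0.005, and 5646 had an unadjusted p under 0.05. With upper quartile scaling the split was 1354 higher and 1355 lower and the median of all genes was -0.08, so neither direction prevailed under every scaling. The count changed greatly when 1 library was left out: it was 5741 without UV-C 3 d replicate 3, 77 without replicate 1, and 1, 2 and 8 without control replicates 1, 2 and 3. The test takes 1 estimate of spread per gene for both groups, although their coefficients of variation were 34.4% and 13.5%. Whether this bears on the counts was not tested. A fit of all 21 libraries, which shares 1 estimate of spread among all groups, called 4708 genes (25.8% of 18265 tested; 15.2% higher and 10.6% lower), and 2520 of the 2711 were called in the same direction in both.

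**Figure D1:**
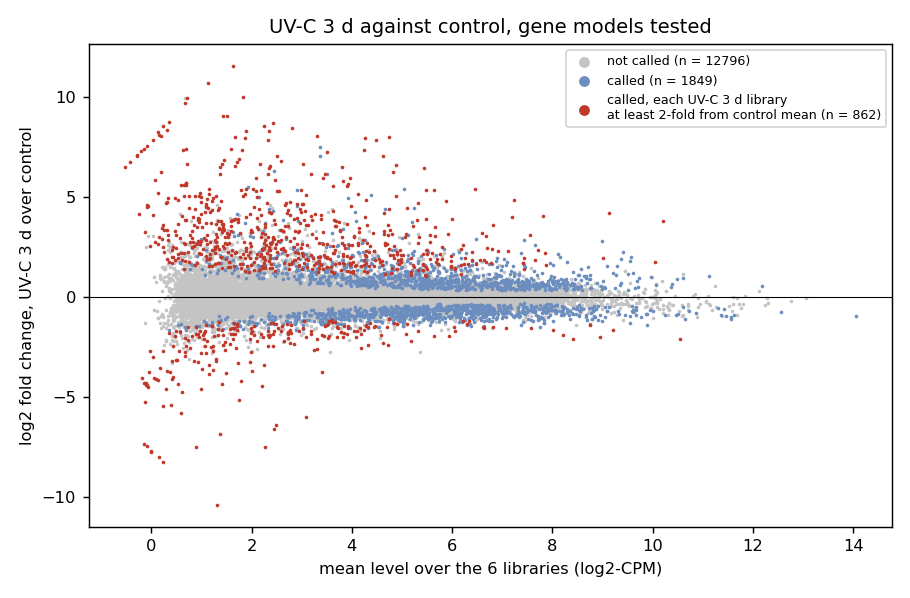
Log2 fold change of UV-C 3 d over control (vertical axis) against the mean level over the 6 libraries in log2-CPM (horizontal axis), 1 point for each of 15507 gene models tested. The 862 gene models of which each UV-C 3 d library lay at least 2-fold from the control mean are red, the other called ones blue and those not called grey; the spread of fold changes narrows as the level rises.

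Among called genes, rises reached farther than falls, but hardly so among the most abundant genes. In the highest of 4 classes by mean level the median log2 fold changes were 0.74 and -0.72, and in the lowest 2.97 and -2.01. Of the genes called higher, 318 (19.8%) rose at least 8-fold, 243 rose 4- to 8-fold, 482 rose 2- to 4-fold and 565 (35.1%) rose by less than 2-fold. Of the genes called lower, 57 (5.17%) fell at least 8-fold, 48 fell 4- to 8-fold, 349 fell 2- to 4-fold and 649 (58.8%) fell by less than 2-fold. In these classes a group with 0 counts was set to 3 counts over the group, which applied to 18 genes called higher, silent in all controls, and 7 called lower, silent in all UV-C 3 d libraries. The medians of 1.47 and -0.91 were the same with those genes at that bound. The 18 summed to 1023, 1969 and 429 counts in UV-C 3 d replicates 1, 2 and 3, so they too were lowest in replicate 3.

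Calls were spread over all levels of abundance, and the sizes of the called changes shrank with the level. When genes were ranked by mean level over the 6 libraries and cut into 4 classes of equal size, in the lowest class 8.72% were called higher, with a median log2 fold change of 2.97, and 4.1% lower, with a median of -2.01. In the highest class, 12.4% were called higher, with a median of 0.74, and 11.3% lower, with a median of -0.72. These medians are over called genes only.

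Nearly all called genes held in all 3 libraries, which the call itself makes likely because it uses the same 6 libraries. A gene was taken to hold when it was called and each UV-C 3 d library lay above the highest control library, or each lay below the lowest. This was so for 1596 of the 1608 genes called higher and for 1103 of the 1103 called lower, together 2699 (17.4% of genes tested; 10.3% higher and 7.11% lower). For genes called without replicate 3, replicate 3 lay beyond all controls on the called side in only 77.3%. Whether called or not, 6778 genes (43.7% of those tested) had all 3 UV-C 3 d libraries on the same side of all control libraries, 3356 above (21.6%) and 3422 below (22.1%). A stricter requirement, that each UV-C 3 d library differ at least 2-fold from the control mean, left 633 risers (4.08% of genes tested) and 229 fallers (1.48%), together 5.56%, with median log2 fold changes of 2.73 and -1.94. Calls made also without each UV-C 3 d library in turn numbered 72, with 38 risers and 34 fallers. That last count is set mainly by the fit without replicate 1, which called only 77 genes, 74 of them among the 2711.

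Within the called genes the size of the change differed between the libraries. The genes called higher had a median log2 difference from the control mean of 1.37 in replicate 1, 1.67 in replicate 2 and 0.89 in replicate 3. Those called lower had medians of -0.82, -1.17 and -0.7. Replicate 3 showed the smallest change of the 3 libraries in 73.9% of the genes called higher and 60.7% of those called lower, and replicate 2 the largest in 75.6% and 75.6%. Among all genes tested the same shares, in the direction of the group mean, were 54.7% and 57.5%. In 12 of the genes called higher, replicate 3 did not lie above all controls: it was within their range in 10 and below all of them in 2.

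The genes that hold carried a sizeable part of all counts. The 1596 risers took 18.2%, 23.1% and 14.2% of all counts in UV-C 3 d replicates 1, 2 and 3, against 8.17%, 7.96% and 8.35% in the control libraries. The 1103 fallers took 11.8%, 8.51% and 12.7% in UV-C 3 d, against 19.5%, 19.9% and 19.7% in the control. Replicate 2 had the most counts in risers and the fewest in fallers, and the groups did not overlap in either share, which follows from how the genes were chosen. The 633 risers that moved at least 2-fold in each library took 4.51% ± 1.99 of counts in UV-C 3 d and 0.606% ± 0.0727 in the control (SD, n = 3 each). The 229 such fallers took 0.35% ± 0.0704 in UV-C 3 d and 1.25% ± 0.0663 in the control.

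Expression was also less concentrated in a few abundant gene models after UV-C. The 10 gene models with the most counts in each library together took 6.26% ± 0.371 of all counts in UV-C 3 d and 7.71% ± 0.159 in the control, and the top 100 took 21.9% ± 1.32 and 26.1% ± 0.62 in UV-C 3 d and the control (SD, n = 3 each). Neither share overlapped between the groups (exact permutation p = 0.1 each, the smallest 3 against 3 can give; Benjamini-Hochberg adjusted p = 0.125 over 5 library measures). The gene model with the most counts in the control averaged 12463 ± 3589 CPM (counts relative to the scaled library total) in UV-C 3 d and 23920 ± 282 CPM in the control, a log2 fold change of -0.94 (edgeR, adjusted p = 0.0488). Of the 100 gene models highest in the control, 27 were called lower and 6 higher, where 7.11% and 10.4% of all genes tested were called lower and higher, and 11.3% and 12.4% of the highest of 4 classes by level. Of the same 100, 74 were also among the 100 highest in UV-C 3 d. These 100 were chosen by a high control value, so their counts are a description.

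To read each library with genes it had not helped to choose, genes were called from the other 2 UV-C 3 d libraries and the 3 controls, and then looked up in the library left out. The fit without replicate 1 called 77 genes (0.481% of 16001 tested; 0.25% higher and 0.231% lower), of which replicate 1 lay beyond all controls on the called side in 98.7%. The fit without replicate 2 called 2215 genes (13.9% of 15929 tested; 7.5% higher and 6.4% lower), and replicate 2 did so in 97.2%. The fit without replicate 3 called 5741 genes (34.7% of 16530 tested; 20.3% higher and 14.4% lower), and replicate 3 did so in 77.3%. For all genes tested, with the direction of the other 2 libraries, the same shares were 66.7%, 68.9% and 56.3%. The controls serve both the choice and the reading, so part of each share comes from them.

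**Figure D2:**
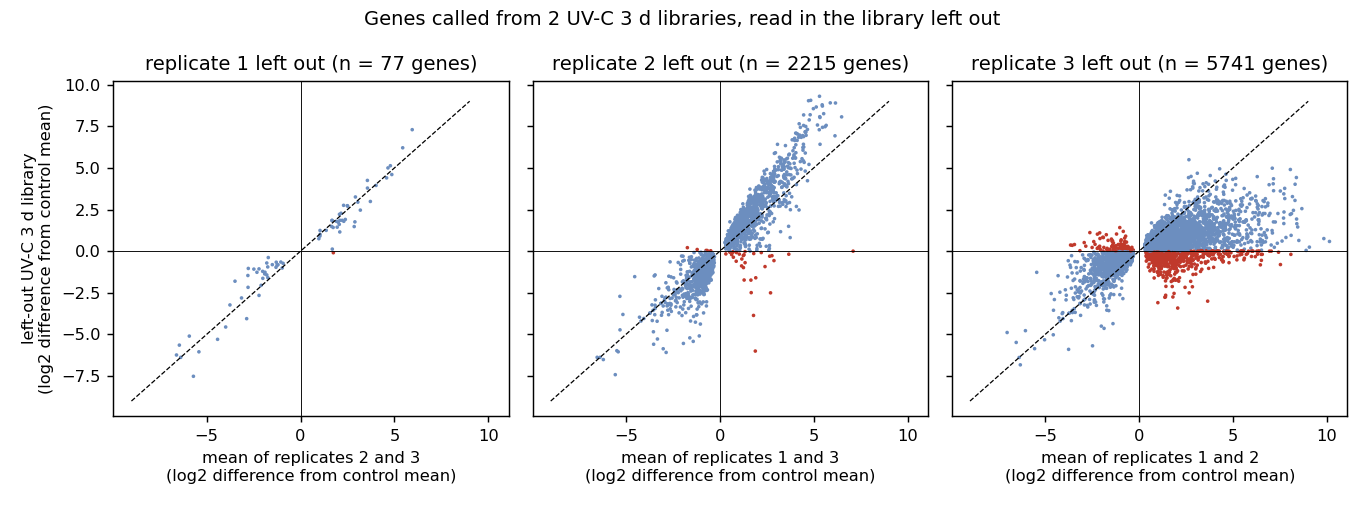
Each panel plots the log2 difference from the control mean in the UV-C 3 d library left out (vertical axis) against the mean of the other 2 UV-C 3 d libraries (horizontal axis), for the genes called without it (n = 77, 2215 and 5741); the dashed line marks equality and red points have opposite signs. Replicate 2 lies beyond the line for most genes, and replicate 3 falls short of it.

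Replicate 3 went in the called direction for most of these genes, at a reduced size. Its median log2 difference, counted in the called direction, was 0.47, where replicates 1 and 2 averaged 1.18, a ratio of 0.398. The same ratio was 1.44 for replicate 2 against the other libraries and 0.811 for replicate 1. Over all genes tested, in the direction of the other 2 libraries, the ratios were 0.49, 1.41 and 0.865 for replicates 3, 2 and 1. The reduced size in replicate 3 was therefore not particular to the called genes, which were also chosen by the other 2 libraries. For the risers the ratio in replicate 3 was 0.318, from medians of 0.498 and 1.57, and for the fallers 0.484, from medians of 0.453 and 0.935. The sizes in replicate 3 were thus close, and the ratios differed mainly through the larger change of the risers in replicates 1 and 2. Fallers were shared more fully than risers: replicate 3 lay below all controls in 85.4% of the 2383 genes called lower, and above all controls in 71.5% of the 3358 called higher. The difference between those shares was not tested, because genes are not independent, and no share by direction over all genes tested was set beside them. The fallers were also more abundant: those shared had a median of 5.09 log2-CPM over the 6 libraries, against 4.18 for the shared risers. Among genes that replicate 3 left within the control range the medians were 4.84 and 2.04. Whether level accounts for the difference in shares was not tested.

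Of the 3358 genes called higher from replicates 1 and 2, replicate 3 was above all controls in 2400, within their range in 659 and below all of them in 299. Of the 2383 called lower, it was below all controls in 2036, within their range in 267 and above all of them in 80. Together, replicate 3 lay within the range in 926 of these genes (16.1%) and on the opposite side in 379 (6.6%). For all genes tested, with the direction of the other 2 libraries, the same shares were larger, 29.6% and 14.1%. The 659 risers that replicate 3 left within the control range were less abundant, with a median of 2.04 log2-CPM over the 6 libraries, than the 2400 it shared, with a median of 4.18. A level that includes replicate 3 is lower where replicate 3 is low.

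The other irradiated groups, which had no part in that choice, showed the same genes at different heights. For the 2400 shared risers, the median log2 difference from the control mean was 0.37 to 0.77 in the UV-C 1 d libraries and 0.48 to 0.74 in the UV-C 7 d libraries. For the 299 risers in which replicate 3 lay below all controls it was 0.2 to 0.69 at UV-C 1 d and -0.33 to 0.16 at UV-C 7 d. In UV-B 3 d the 2400 shared risers had medians of 0.83 to 1.24, and the 299 had 0.25 to 0.83. The 659 risers that replicate 3 left within the control range had medians of 0.23 to 0.67 at UV-C 1 d, 0.1 to 0.58 at UV-C 7 d and 0.69 to 1.33 at UV-B 3 d. All of these differences use the same control libraries as the choice, so they are given side by side with no test.

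**Figure D3:**
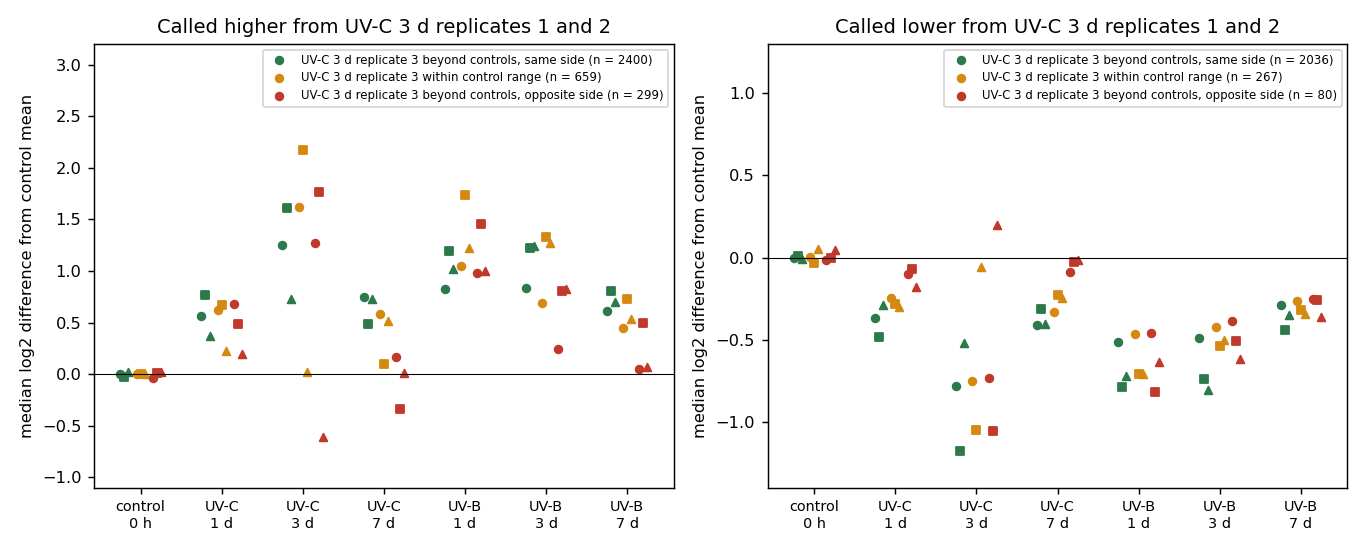
Median log2 difference from the control mean (vertical axis) in each of 21 libraries by group, for genes called higher (left) or lower (right) from UV-C 3 d replicates 1 and 2, split by where UV-C 3 d replicate 3 lay; circles, squares and triangles are replicates 1, 2 and 3. In UV-C 7 d the risers in which replicate 3 lay below all controls (red, n = 299) lie at -0.33 to 0.16, those it left within the control range (n = 659) at 0.1 to 0.58, and those it shared (n = 2400) at 0.48 to 0.74.

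Gene models that were silent in the control and detected after UV-C also showed a split between the libraries. Taking at least 20 counts as detected and at most 2 as silent, over all 84525 gene models, 10 were silent in all 3 controls and detected in all 3 UV-C 3 d libraries. A further 86 were silent in the controls and in UV-C 3 d replicate 3 but detected in replicates 1 and 2. In contrast, 3 were detected only in replicates 1 and 3, and 0 only in replicates 2 and 3. The 86 gene models together held 7263 and 17833 counts in UV-C 3 d replicates 1 and 2, 57 in replicate 3, and 27, 23 and 28 in control replicates 1, 2 and 3. All 86 fell below the filter on low counts in the fit of 6 libraries, so they are not among the 2711 called genes. All 86 were called higher in the fit without replicate 3. The sums and both of these outcomes follow largely from how the 86 were picked, so they are a description.

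The same 86 gene models were partly detected in the other irradiated groups. Between 31 and 71 of them reached 20 counts in the UV-B 3 d libraries, between 21 and 51 in UV-B 1 d, and between 14 and 22 in UV-B 7 d. Under UV-C they reached it in 0 to 9 cases at 1 d and in 12 to 19 at 7 d. The 10 gene models detected in all 3 UV-C 3 d libraries were detected in 6 to 10 cases in UV-B 3 d, in 1 case in each UV-C 1 d library, and in 5 to 9 cases in UV-C 7 d. In UV-C 3 d these 10 summed to 1428, 2032 and 369 counts in replicates 1, 2 and 3, against 5 in each control library.

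Loss of detection did not show the same split between replicates 1 and 2 and replicate 3. At least 20 counts in each control and at most 2 in each UV-C 3 d library were found for 9 gene models, which summed to 5, 6 and 3 counts in UV-C 3 d replicates 1, 2 and 3 and to 708, 832 and 931 in control replicates 1, 2 and 3. None went silent in replicates 1 and 2 alone. In replicate 2 alone 12 went silent, and in replicate 3 alone 4.

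By identifier, 2 risers and 2 fallers were followed, chosen among those that held, were called also without each UV-C 3 d library and averaged at least 2 log2-CPM. PITA_000035530-RA was the riser with the largest change in its least changed library. It had 45.4, 52.5 and 13.5 CPM in UV-C 3 d replicates 1, 2 and 3, against 0.404, 0.399 and 0.256 CPM in control replicates 1, 2 and 3. The groups lay far apart, and replicate 3 was the lowest of the irradiated libraries. Its log2 fold change was 6.65 ± 0.69 (SE; edgeR, adjusted p = 0.0129), and its ratio of levels was 103 with a 95% interval of 51.9 to 239 from 766 and 8 summed counts, which covers counting error only.

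PITA_000010358-RA gained the most counts among the eligible risers. It had 921, 1157 and 460 CPM in UV-C 3 d replicates 1, 2 and 3, against 32.9, 24.7 and 29.2 CPM in control replicates 1, 2 and 3. All irradiated libraries were above all controls, and replicate 3 was again the lowest of the irradiated 3. Its log2 fold change was 4.87 ± 0.38 (SE; edgeR, adjusted p = 0.00711).

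PITA_000085805-RA was the faller with the largest change in its least changed library. It was nearly undetected after UV-C, with 0.329, 0.273 and 0.129 CPM in UV-C 3 d replicates 1, 2 and 3, against 43.5, 45 and 47.3 CPM in control replicates 1, 2 and 3. These levels rest on 2, 2 and 1 counts in UV-C 3 d replicates 1, 2 and 3, too few to compare the replicates with each other. The log2 fold change was -7.48 ± 0.24 (SE; edgeR, adjusted p = 0.000247). This SE understates the error from so few counts, and was 0.67 under DESeq2 and 0.76 in the fit of all 21 libraries. From 5 summed counts in UV-C 3 d and 1030 in the control, the level was 192-fold lower, with a 95% counting interval of 82 to 592.

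PITA_000020926-RA lost the most counts among the eligible fallers. It had 733, 649 and 786 CPM in UV-C 3 d replicates 1, 2 and 3, against 2862, 3007 and 3331 CPM in control replicates 1, 2 and 3. It stood at rank 27 of the tested gene models by mean CPM in the control and at rank 150 in UV-C 3 d, an order that also depends on transcript length. Its log2 fold change was -2.09 ± 0.13 (SE; edgeR, adjusted p = 0.00569). Without control replicate 1 or 2, both risers and PITA_000020926-RA missed the threshold (edgeR, adjusted p between 0.0574 and 0.101), as both risers did without control replicate 3. PITA_000085805-RA passed without each control library in turn. The followed gene models were chosen to pass without each UV-C 3 d library, so those fits add nothing.

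**Figure D4:**
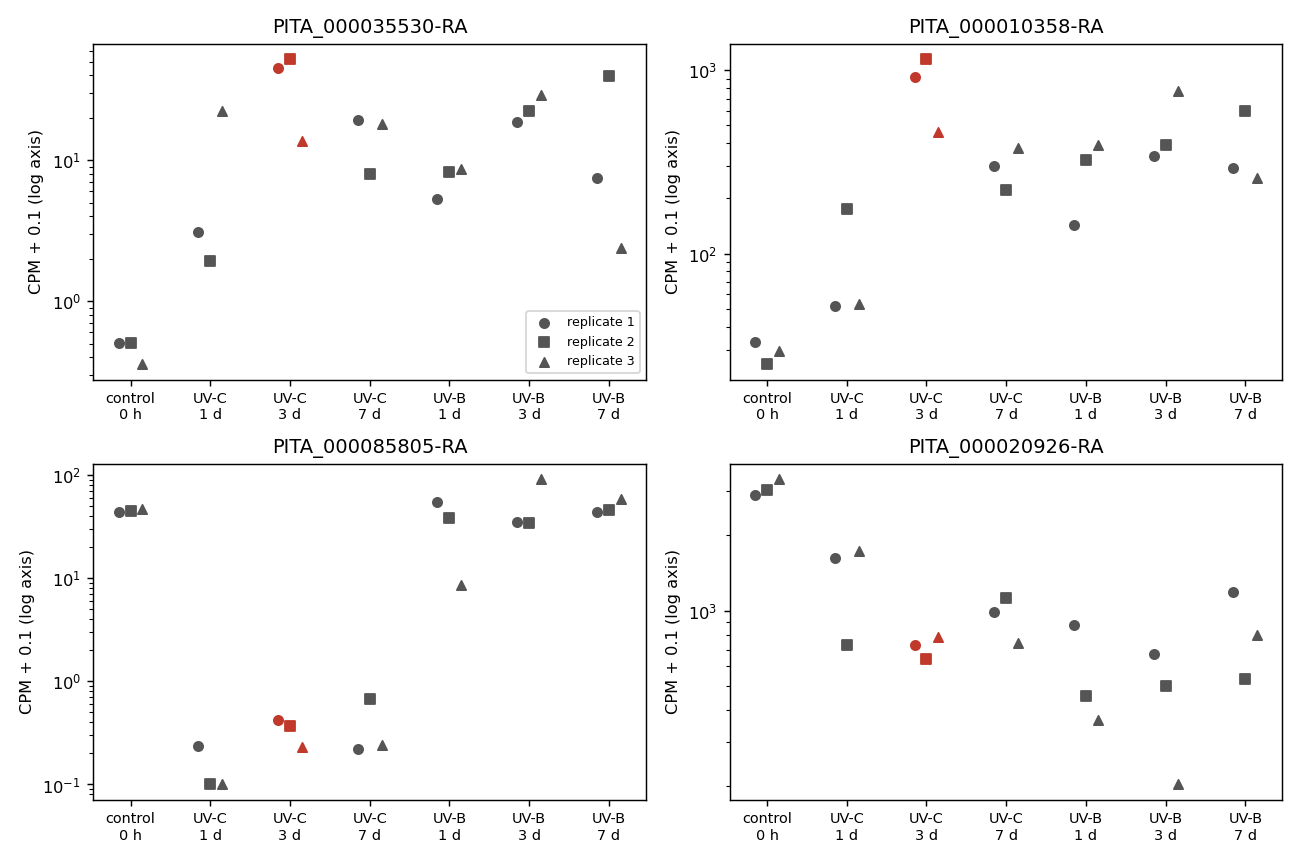
Level of the 4 followed gene models in CPM plus 0.1 (vertical log axis) in each of 21 libraries by group, with UV-C 3 d in red; circles, squares and triangles are replicates 1, 2 and 3. PITA_000085805-RA lies below 1 CPM in all UV-C libraries, at 1, 3 and 7 d, and above 8 CPM in the control and UV-B libraries.

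The followed gene models took different courses through the UV-C series, here in CPM scaled over all 21 libraries (mean ± SD, n = 3 each). PITA_000035530-RA averaged 0.355 ± 0.0851 CPM in the control, 8.99 ± 11.4 at UV-C 1 d, 36.8 ± 20.5 at 3 d and 15 ± 6.17 at 7 d, and 23.3 ± 5.29 at UV-B 3 d. PITA_000010358-RA averaged 29.1 ± 4.1 CPM in the control, 93.2 ± 70.5 at UV-C 1 d, 840 ± 349 at 3 d and 300 ± 78.2 at 7 d, and 500 ± 236 at UV-B 3 d. The 3 d libraries of UV-C were the highest of that band for PITA_000010358-RA, while for PITA_000035530-RA the range at 3 d overlapped those at 1 d and 7 d.

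The first faller differed between the bands. PITA_000085805-RA was at 0.0453 ± 0.0784 CPM at UV-C 1 d, 0.242 ± 0.102 at 3 d and 0.279 ± 0.255 at 7 d, but at 53.6 ± 32.3 at UV-B 3 d and 45.4 ± 1.78 in the control. Its contrast of UV-C 3 d with UV-B 3 d gave a log2 fold change of -7.74 ± 0.64 (SE; edgeR, 6 libraries, adjusted p = 0.0239). This contrast uses no control library, but it uses the UV-C 3 d libraries for whose low values the gene model was chosen. Those rest on 5 summed counts, so this SE too may understate the error. PITA_000020926-RA was lower than in the control in every irradiated group, with 719 ± 72.7 CPM at UV-C 3 d, 457 ± 236 at UV-B 3 d and 3079 ± 232 in the control. Its contrast of UV-C 3 d with UV-B 3 d was 0.63 ± 0.41 (SE; edgeR, adjusted p = 0.456), which does not show that the bands acted alike.

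**Figure D5:**
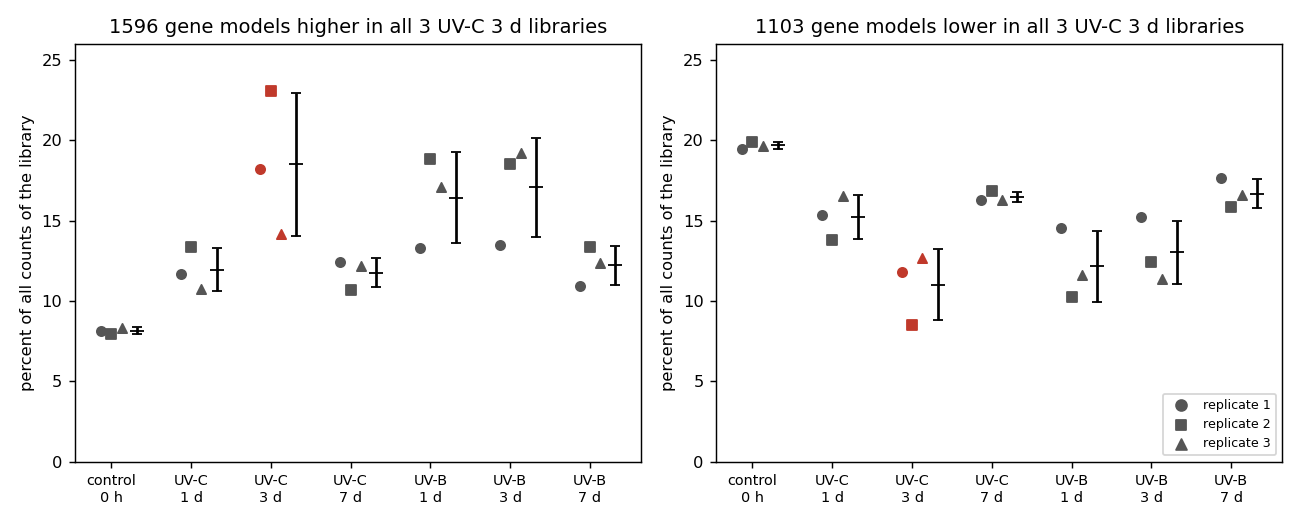
Percent of all counts in each library (vertical axis) taken by the 1596 gene models higher (left) and the 1103 lower (right) in all 3 UV-C 3 d libraries, by group; symbols are replicates and bars are the mean ± SD. In UV-C 3 d (red) the risers take 14.2% to 23.1% and the fallers 8.51% to 12.7%.

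The summed shares of the genes that hold at 3 d of UV-C lay, at the other UV-C durations, between those of the control and of UV-C 3 d. The 1596 risers took 8.16% ± 0.198 of counts in the control, 12% ± 1.32 at UV-C 1 d, 18.5% ± 4.46 at 3 d and 11.8% ± 0.92 at 7 d (SD, n = 3 each). The 1103 fallers took 19.7% ± 0.211, 15.2% ± 1.36, 11% ± 2.21 and 16.5% ± 0.3 in the same order. In UV-B 3 d the risers took 17.1% ± 3.1 and the fallers 13% ± 1.99. The genes were chosen for their extreme 3 d values and the control libraries are shared, so these shares are a description.

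Direct contrasts of UV-C 3 d with its neighbours, each in a fit of its own 6 libraries, called few genes. Against UV-B 3 d, 6 genes were higher (0.0374% of 16030 tested) and 25 lower (0.156%) under UV-C, together 0.193%, with log2 differences of 1.06 to 5.76 in size for the higher and 1.09 to 7.74 for the lower. Of the 25 lower genes, 10 were also called lower than the control, 4 were called higher than the control, 9 were not called and 2 were not tested there. Against UV-C 1 d, 1 gene was called (0.00626% of 15977 tested), higher at 3 d by 2.35 log2 units (edgeR, adjusted p = 0.0204), which was also called higher than the control. Against UV-C 7 d, edgeR called 0 genes (0% of 15720 tested), with 3519 at an unadjusted p under 0.05, while DESeq2 called 1416 and limma voom with library weights 2214. The fit of all 21 libraries called 1570 genes against UV-B 3 d (8.6% of 18265 tested; 4.54% higher and 4.05% lower). It called 1139 against UV-C 1 d (6.24%; 4.46% higher and 1.77% lower) and 1560 against UV-C 7 d (8.54%; 4.63% higher and 3.91% lower).

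In edgeR's fits of 6 libraries, the counts against the other UV-C durations changed most when UV-C 3 d replicate 3 was left out. Without it, 732 genes were called against UV-C 1 d and 2807 against UV-C 7 d, whereas against UV-B 3 d the count was 16. Without UV-C 3 d replicate 1 or 2, the counts against UV-B 3 d were 0 and 1, and without UV-B 3 d replicates 1, 2 and 3 they were 3, 0 and 9.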

How the data were processed

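The members and tests were chosen with earlier results of these data known. Trimmomatic 0.36 trimmed the paired reads of 150 bp, per the labels' protocols. The submitters' processing notes name featureCounts 1.5.3 as the counter. The sources used here do not state the aligner, the reference, the strand setting or how multiply matching reads were handled. The authors deposited raw counts for 84525 gene models, of which 32835 had a count in the 6 libraries. Near-identical gene copies, frequent in conifers, may share reads, so single gene models are uncertain to that extent.

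The main test was edgeR 4.0.16 under R 4.3.3 (filterByExpr, TMM, quasi-likelihood F-test, two-sided, adjusted p under 0.05) on the 6 libraries compared. It left 15507 genes, and the filter needs counts in at least 3 libraries. Each standard error is the log2 fold change over the root of its F statistic. Levels in log2-CPM use a prior count of 2. At 6177212 to 8065146 counts per library, low genes are measured coarsely. Scripts were tested on simulated data. Every pair of replicates differed by more than counting noise (chi-square of 4.13 to 68.1 for each degree of freedom), so none was merged. Followed genes came from a rule: the riser and the faller whose smallest library change was largest, and those with the largest difference in mean CPM. The cut-offs of 20 and 2 counts were chosen after seeing the data. Alternatives were DESeq2 1.42.0, limma 3.58.1 voom with library weights, other scalings and filters, all 21 libraries, a minimum fold, a replicate block, and leaving out libraries.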

Additional observations from a re-analysis of the deposited data

Results flagged for a closer look

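The response to UV-C at 3 d differed from that to UV-B at 3 d in a direct test of the difference, which called 31 gene models, 6 higher and 25 lower under UV-C (edgeR, 6 libraries, 0.193% of genes tested). The count was 0 to 16 leaving out a library and 0 with the replicate block, so it rested on single libraries. The bands were given at different intensities, 28 and 280 µW/cm2, so band and intensity cannot be told apart.

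The response at 3 d differed from that at 1 d of UV-C in 1 gene model in the same kind of test (edgeR, log2 difference of 2.35, adjusted p = 0.0204, 0.00626% of genes tested). No gene was called without UV-C 3 d replicate 1 or 2 or without any 1 of the UV-C 1 d libraries, and 732 were called without UV-C 3 d replicate 3.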

How the results depend on the processing

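For UV-C 3 d against the control, the count of 2711 called genes and the 2699 that held stayed within 1.5 times under DESeq2 size factors, upper quartile factors, either filter on low counts and the DESeq2 Wald test. They were 5594 and 4804 with limma voom and library weights, which weighted UV-C 3 d replicates 1, 2 and 3 by 2.7, 0.328 and 0.334, 4708 and 4235 in the fit of all 21 libraries, and 1497 and 1485 with a log2 fold change of at least 1. Leaving out 1 library gave 1 to 5741 genes for both counts in the fit of 6 libraries, and 2168 to 5858 called and 2098 to 5841 held in the fit of all 21 libraries, an alternative chosen after seeing the data. The replicate block gave 659 and 644; same-numbered UV-C 3 d and control libraries did not deviate together (correlations of 0.038, -0.0023 and 0.0356, and not every library correlated best with its own number). Against UV-C 1 d the count of 1 was 47 with no filter, 663 with DESeq2, 88 with voom, 1139 with all 21 libraries, 7 with the replicate block and 0 to 732 leaving out a library. Against UV-C 7 d the count of 0 was 338, 1416, 2214 and 1560 with no filter, DESeq2, voom and all 21 libraries, 0 with the replicate block and 0 to 2807 leaving out a library. Against UV-B 3 d the count of 31 was 237, 1054, 965 and 1570 in the same order, 0 with the replicate block and 0 to 16 leaving out a library. The cause of these shifts was not tested. The share of genes in which a left-out UV-C 3 d library lay beyond all controls on the called side was 97.6% to 99.2% for replicate 1, 94.8% to 97.8% for replicate 2 and 70.7% to 79.7% for replicate 3 over the scalings, filters and tools tried.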

Other observations

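For some gene models 1 UV-C 3 d library alone lay beyond the control range. Replicate 1 lay beyond all controls, with both mates within the control range, for 526 of the 15507 genes tested, replicate 2 for 966 and replicate 3 for 688. At a difference of at least 2-fold from the control mean these were 74, 158 and 102. Replicate 3 had fewer such genes than replicate 2, although it correlated least with its mates. With its mates left aside, each library lay beyond all controls in 75.5%, 81.7% and 71.4% of genes tested in replicates 1, 2 and 3. No chance level was set beside the counts, so they do not show a response of 1 library alone.

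Gene models with identifiers that start with PITAhm_ were tested more often than the rest, 1349 of 1654 in the table, against 13734 of 81405 that start with PITA_ and 424 of 1466 with other forms. Calls made up 20.2% of the tested PITAhm_ gene models, 17.3% of PITA_ and 13.4% of the others. What the forms stand for is not given in the sources used here.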
